A study of Mus musculus with 6 samples.

Results

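The genes described here are the Wnt ligands, their Frizzled receptors and co-receptors, and the secreted proteins that modulate them, in tumour organoids of the mouse intestine. Members were chosen by symbol: every Wnt, Fzd, Rspo, Dkk and Sfrp gene followed by a number, plus Lrp5, Lrp6, Ror1, Ror2, Ryk, Porcn and Wls. This gave 48 of the 23224 genes in the deposited table: 19 Wnt ligands, 10 Frizzled receptors, 5 co-receptors and alternative receptors, 2 genes of ligand secretion, 4 R-spondins, 4 Dickkopf genes and 4 secreted Frizzled-related proteins.

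The study measured RNA by sequencing in 3 Control libraries and 3 libraries labelled SOX17KO. All 6 came from AKP organoids that the labels describe as derived from tumours in vivo. The labels do not spell out the genotype AKP, which Control and SOX17KO share. Per the series' design text, CRISPR-Cas9 was used in the SOX17KO group to delete SOX17, an endoderm transcription factor, and to ask about its role in colon cancer; its RNA level, given below, does not check this. The sources used here give neither the treatment of the Control organoids nor the cultures or clones behind each library, so p-values measure only how these libraries vary, which may be technical variation.

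Wnt proteins are lipid-modified by Porcupine (Porcn), carried to the cell surface by Wntless (Wls), and bind a Frizzled receptor together with LRP5 or LRP6, which stabilises beta-catenin. R-spondins strengthen the signal by protecting Frizzled receptors from removal, whereas Dickkopf proteins bind LRP5 and LRP6 and secreted Frizzled-related proteins bind the ligands. In the intestine, Wnt ligands and R-spondins from Paneth cells and the surrounding mesenchyme maintain the crypt stem cells, and loss of Apc makes beta-catenin signalling largely independent of ligand. ROR1, ROR2 and RYK bind Wnt ligands in branches that do not need beta-catenin.

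Libraries held 18290912 to 27503254 expected counts. Levels are given as CPM, counts per 1000000 of library size scaled by TMM (trimmed mean of M-values) normalization factors, and differences as log2 fold changes of SOX17KO over Control from the quasi-likelihood test of edgeR, with Benjamini-Hochberg adjustment over the 12137 genes that passed a low-count filter; a gene was called at an adjusted p below 0.05. Sox17 was at 34.4 ± 0.149 CPM in the Control libraries against 40.2 ± 5.82 CPM in SOX17KO (SD, n = 3; edgeR adjusted p = 0.345), so its level was not lower in the libraries labelled SOX17KO and does not check the labels. SOX17KO replicate 1 stood apart: its log2 CPM correlated at 0.960 and 0.963 with those of the other two SOX17KO libraries, which correlated at 0.986 with each other. All 7 epithelial markers passed the filter and summed to 13240.2 to 14015 CPM in the Control libraries against 9814 to 14031 CPM in SOX17KO. Of these 7, Epcam and Cldn7 rose, by 0.34 and 0.43 on the log2 scale, and 5 were not called. The 5 included the most abundant, Krt19, with 5989.6 ± 269 CPM in Control, 4711 ± 1083 CPM in SOX17KO and no overlap between the groups. Leaving out any Control library ended the calls of Epcam and Cldn7 (edgeR adjusted p up to 0.207 and 0.143). That of Epcam also ended without SOX17KO replicate 2 or 3 (edgeR adjusted p = 0.0657 and 0.0749) and with no low-count filter (edgeR adjusted p = 0.0707). None of 11 mesenchymal markers passed the filter; Col3a1, Dcn, Lum and Thy1 were at 0 in all 6 libraries, and the 11 together summed to 0.109 to 0.152 CPM in the Control libraries against 0.332 to 0.877 CPM in SOX17KO. Of the Paneth cell markers Lyz1, Defa24, Defa17, Defa22 and Ang4 were at 0 in all 6 libraries; Itln1 had counts, at 1.01 ± 0.0511 and 5.36 ± 1.48 CPM. Endothelial markers summed to at most 0.877 CPM in any library, and immune markers to 8.71 to 11.2 CPM in the Control libraries against 5.84 to 14.3 CPM in SOX17KO, most of it from the lysosomal gene Cd68, with Cd3e at 0.

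Of the 48 members, 17 passed the filter and were tested, 19 had some counts but too few, and 12 were listed at 0 in every library. Among the 17, Dkk2 and Ror2 rose in SOX17KO, none fell, and 15 were not called. Both passed the low-count filter only through their SOX17KO libraries. In Control, Dkk2 had 10, 10 and 16 counts and Ror2 had 11, 8 and 9. The counts and medians of the 17 thus include 2 genes admitted by the group where they were high. With no low-count filter edgeR called both as well (adjusted p = 0.000178 and 0.0117), in a fit that called 5.19% of its genes. Over all tested genes 6.87% were called, 3.67% higher and 3.20% lower. The median log2 fold change of the 17 was 0.13, against 0.014 over all tested genes, and the median size of the change regardless of sign was 0.24 against 0.15. In 4 of the 17 (Dkk2, Ror2, Wnt7b and Fzd6) the 3 SOX17KO libraries did not overlap the 3 Control libraries, against 28.2% of all tested genes, so this count was close to the background.

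**Figure D1:**
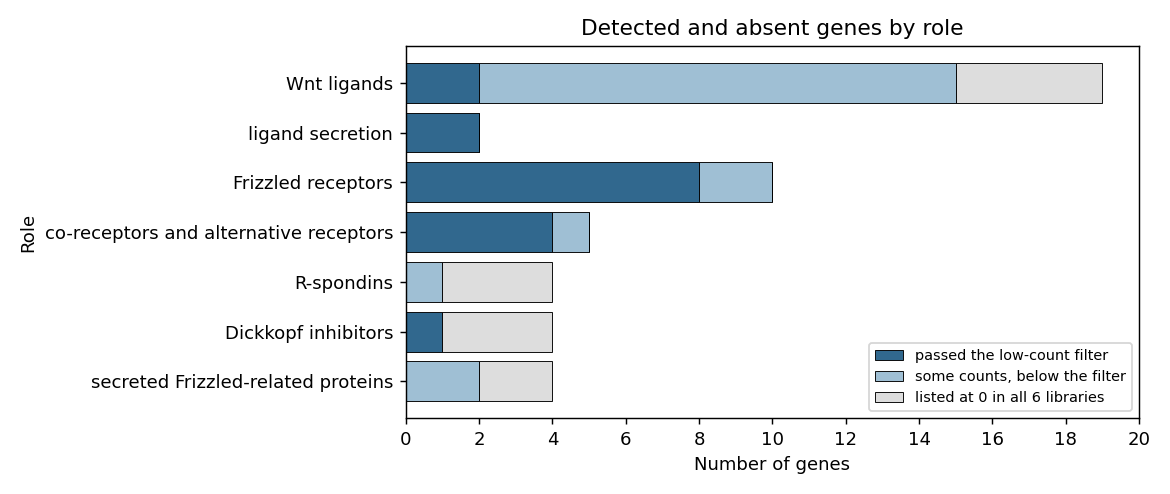
Number of genes (horizontal axis) in each role (rows) that passed the low-count filter, had counts below it, or were listed at 0 in all 6 libraries. Of the 19 ligand genes 2 passed, of the 10 Frizzled genes 8, and none of the R-spondin or secreted Frizzled-related genes.

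Dkk2 and Ror2, the called genes, and Wnt16, with counts in SOX17KO libraries alone, were higher in every SOX17KO library than in any Control library. The stretches before their start sites are shown for that reason. Each is the 250 bases upstream of the start in RefSeq (GRCm38.p6; the build named for the counts is mm9), at chr3:132085042-132085291 on the plus strand for Dkk2, chr13:53286125-53286374 on the minus strand for Ror2 and chr6:22287977-22288226 on the plus strand for Wnt16. Capitals mark matches, on either strand, to ACAAT (the core bound by SOX factors), CTTTGA (the core bound by TCF and LEF factors), TATAAA (the TATA box) or CCAAT (the CCAAT box).
Dkk2: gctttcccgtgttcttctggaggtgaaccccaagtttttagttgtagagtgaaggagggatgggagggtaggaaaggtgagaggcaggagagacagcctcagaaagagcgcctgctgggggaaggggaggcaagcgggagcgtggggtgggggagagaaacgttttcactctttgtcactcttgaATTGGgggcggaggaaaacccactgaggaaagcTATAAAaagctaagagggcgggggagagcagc
Ror2: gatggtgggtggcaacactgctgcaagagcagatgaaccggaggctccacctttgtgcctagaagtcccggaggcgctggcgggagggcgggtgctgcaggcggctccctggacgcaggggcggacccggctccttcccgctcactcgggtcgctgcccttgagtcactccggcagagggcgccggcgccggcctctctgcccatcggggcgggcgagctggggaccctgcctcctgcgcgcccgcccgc
Wnt16: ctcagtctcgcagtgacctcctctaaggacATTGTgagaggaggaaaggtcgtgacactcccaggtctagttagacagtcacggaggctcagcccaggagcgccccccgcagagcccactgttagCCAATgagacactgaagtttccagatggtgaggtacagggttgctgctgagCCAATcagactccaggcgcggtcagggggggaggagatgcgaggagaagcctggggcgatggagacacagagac

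The Dkk2 window held 1 TATA box match, which began 32 bases before the start, and 1 CCAAT match on the opposite strand, 65 bases before it. The Ror2 window, at 73.2% G and C against 55.6% for Dkk2 and 59.2% for Wnt16, matched none of the 4 strings. The Dkk2 and Ror2 windows hold CTTTGT, another form of the TCF/LEF core, which was not searched for. The Wnt16 window held 1 SOX core match on the opposite strand, 220 bases before the start, and 2 CCAAT matches, and no marked matches overlapped. Among all 32851 RefSeq windows of this length, 27.7% held the SOX core, 13.8% the TCF/LEF core, 12.4% the TATA box and 33.8% the CCAAT box. Of the 48 members 31 were in that promoter table, but not Fzd6 or Wnt7b, which were lower in all 3 SOX17KO libraries. The 31 had 34 windows, of which 3 held the SOX core and 5 the TCF/LEF core. These matches describe letters and not bound sites, and the shares and counts leave out other forms of each core.

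Wnt7b, a ligand of epithelial tissues, was the most abundant Wnt gene in every library and supplied nearly all Wnt ligand counts. It was at 189.4, 183.8 and 182.1 CPM in Control replicates 1, 2 and 3 against 52.1, 165.8 and 145.8 CPM in replicates 1, 2 and 3 of SOX17KO. Every SOX17KO library lay below every Control library, and SOX17KO replicate 1 lay far below the other two. Its log2 fold change was -0.61 (95% interval -1.50 to 0.27; edgeR adjusted p = 0.444), so it was not called. Without SOX17KO replicate 1 the decrease was smaller, at -0.25 ± 0.08 (SE), and called (edgeR adjusted p = 0.0394). Wnt7b made up 96.2%, 96.9% and 96.9% of all Wnt ligand counts in the Control libraries and 97.9% and 96.3% in SOX17KO replicates 2 and 3, but 84.4% in SOX17KO replicate 1, where the exact 95% interval was 82.5% to 86.1% and covers counting error only. The summed level of the 19 ligands was 188.0 to 197.0 CPM in the Control libraries against 61.7, 169.3 and 151.3 CPM in SOX17KO replicates 1, 2 and 3. Wnt7b shares exon sequence, on the opposite strand, with the noncoding gene AU022754, which had 74 to 174 counts per library; the strand setting of the counting is not given in the sources used here, so reads of the pair may not have been told apart.

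Wnt7a, a close relative of Wnt7b, was the other ligand that passed the filter. Its level was 6.33, 4.93 and 4.79 CPM in the Control libraries against 4.92, 2.15 and 3.93 CPM in SOX17KO. Here SOX17KO replicate 1 lay within the Control range and the other two below it, the reverse of the order for Wnt7b. The log2 fold change was -0.54 (95% interval -1.28 to 0.19; edgeR adjusted p = 0.404); without SOX17KO replicate 1 it was -0.84 ± 0.26 (SE; edgeR adjusted p = 0.0423). Wnt7a lies on chromosome 6, and the 20 tested genes nearest to it, 10 on each side, had a median log2 fold change of -0.35, with 3 called lower and none higher; the part of that shift in the value of Wnt7a was not tested.

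**Figure D2:**
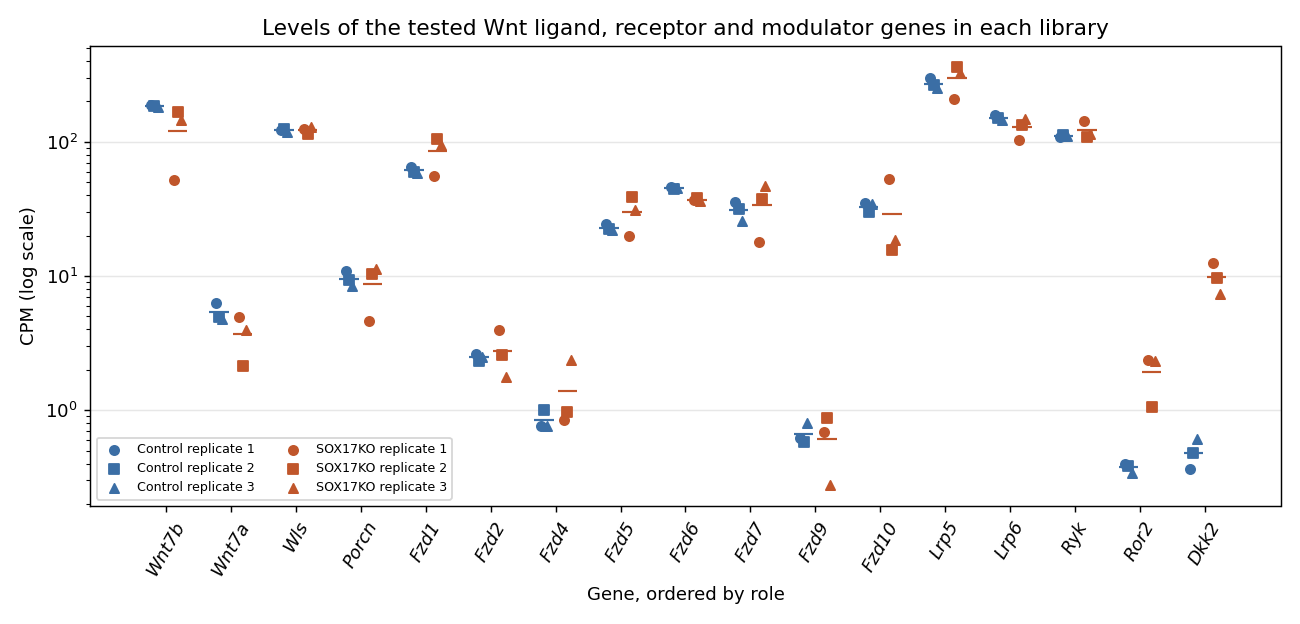
Level in CPM (log axis) of the 17 tested genes in each library, ordered by role; points are libraries, shapes are replicates and short lines are group means. The 3 SOX17KO libraries sit far above the 3 Control libraries for Dkk2 and Ror2, and SOX17KO replicate 1 sits apart from replicates 2 and 3 for Wnt7b, Porcn, Fzd1, Fzd5, Fzd7, Fzd10 and Lrp5.

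The other 17 ligands had at most 37 counts in any library. Wnt16 had 0 counts in all 3 Control libraries and 19, 4 and 6 counts in SOX17KO replicates 1, 2 and 3. With the Control group set at a floor of 3 counts, the ratio of its SOX17KO level to Control was 10.8. The ratio was 6.11 without SOX17KO replicate 1, which leaves 10 counts. Both ratios take the SOX17KO counts as exact, so neither is a lower bound. Wnt16 was below the filter of the main test. With no low-count filter, edgeR called it higher (adjusted p = 0.0405), in a fit that called 5.19% of its genes. DESeq2 also called it higher (adjusted p = 0.00786), in a fit that called 10.7%. Counts of Wnt6 and Wnt5b were concentrated in 1 library. Wnt6 had 2, 0 and 2 counts in Control and 32, 1 and 1 in SOX17KO, and Wnt5b, a ligand of the branches without beta-catenin, had 6, 6 and 7 in Control and 37, 5 and 7 in SOX17KO, the highest in replicate 1 both times. Neither was called with no low-count filter (edgeR adjusted p = 0.305 and 0.371).

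Wnt10b had counts in SOX17KO alone, 5 over the 3 libraries, and Wnt10a and Wnt11 had 3 and 2 over Control against 9 and 6 over SOX17KO. Wnt2b, Wnt4 and Wnt9a had 14, 19.15 and 15 counts over the Control libraries and 20, 22.35 and 11 over the SOX17KO libraries. The counts of Wnt4 were not whole in any library, which RSEM can give where reads are shared between genes. The same held for Wnt7b and Lrp5, and for some other tested members in fewer libraries. Wnt1, Wnt2, Wnt3a and Wnt5a had at most 2 counts over either group. Wnt3, the ligand of Paneth cells, was listed at 0 in all 6 libraries, as were Wnt8a, Wnt8b and Wnt9b. A count of 0 allows a level of up to 0.109 to 0.166 CPM, depending on the library's depth.

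The secretion genes were present in both groups. Wls was at 123.5, 123.9 and 117.7 CPM in Control against 124.0, 115.2 and 128.6 CPM in SOX17KO. The Control values lay inside the range of the SOX17KO values, and the interval of its log2 fold change was narrow, from -0.17 to 0.19 around 0.011 (edgeR adjusted p = 0.963). Porcn, on the X chromosome, was at 10.9, 9.28 and 8.48 CPM in Control against 4.65, 10.4 and 11.4 CPM in SOX17KO. SOX17KO replicate 1 lay far below the other 5 libraries, among which the groups overlapped, and the log2 fold change was -0.13 (95% interval -0.88 to 0.63; edgeR adjusted p = 0.889).

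Of the 10 Frizzled receptors 8 were tested and none was called with all 6 libraries; 1, Fzd6, had an unadjusted edgeR p below 0.05, and DESeq2 called that 1. Fzd6 was at 46.3, 44.8 and 45.1 CPM in Control against 36.9, 38.1 and 36.1 CPM in SOX17KO. All 3 SOX17KO libraries lay below all Control libraries and close to each other, with a log2 fold change of -0.29 ± 0.07 (SE; edgeR adjusted p = 0.0600). It was lower by DESeq2 (adjusted p = 0.0213) and by edgeR without SOX17KO replicate 1 (adjusted p = 0.0201). GENCODE M21 places the noncoding gene Gm26704 on the opposite strand over part of its exons.

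Fzd1, the most abundant Frizzled gene, was at 64.8, 59.9 and 58.9 CPM in Control against 55.7, 104.4 and 94.5 CPM in SOX17KO. SOX17KO replicates 2 and 3 lay above every Control library and replicate 1 below every one of them. Fzd5, a receptor required in Paneth cells, had the same order, with 24.3, 22.6 and 22.0 CPM in the Control libraries against 19.9, 38.8 and 31.2 CPM in SOX17KO. Fzd7, a receptor of intestinal stem cells, did too, with 35.5, 31.6 and 25.7 CPM in the Control libraries against 17.9, 37.4 and 46.5 CPM in SOX17KO. Fzd10 had the opposite order: it was at 34.9, 29.8 and 34.1 CPM in Control against 52.8, 15.5 and 18.5 CPM in SOX17KO, with replicate 1 the highest library of all.

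With all 6 libraries the log2 fold changes of these 4 receptors were 0.47 for Fzd1, 0.38 for Fzd5, 0.13 for Fzd7 and -0.18 for Fzd10, and every interval included 0. Without SOX17KO replicate 1 all 4 were called: Fzd1 at 0.70 ± 0.08, Fzd5 at 0.61 ± 0.11, Fzd7 at 0.44 ± 0.14 and Fzd10 at -0.96 ± 0.11 (SE), with edgeR adjusted p of 0.000168, 0.00283, 0.0466 and 0.000246. That fit called 22.2% of all genes it tested. All 4 had replicate 1 on the other side of Control from replicates 2 and 3, so leaving it out favoured these calls. The direction of Fzd10 turned without SOX17KO replicate 2 or 3 (log2 fold change 0.12 and 0.055) and that of Fzd7 without SOX17KO replicate 3 (-0.16). Despite these shifts the 10 Frizzled genes summed to 190.3 to 209.9 CPM in Control and to 189.2, 239.0 and 231.5 CPM in SOX17KO replicates 1, 2 and 3, so SOX17KO replicate 1 was just under the Control range and the other two above it.

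The remaining Frizzled genes were scarce. Fzd2 was at 2.49 ± 0.132 CPM in the Control libraries against 2.78 ± 1.11 CPM in SOX17KO, Fzd4 at 0.842 ± 0.141 and 1.40 ± 0.857 CPM, and Fzd9 at 0.662 ± 0.120 and 0.614 ± 0.307 CPM (SD, n = 3), with groups that overlapped in each case. Fzd9 lies on chromosome 5 among genes that were lower: the 20 tested genes nearest to it had a median log2 fold change of -1.48 and 16 of them were called lower. Its own log2 fold change was -0.086, with a 95% interval of -1.09 to 0.92 that does not include that median. Fzd9 had 5 to 21 counts per library. Neither the smallest change detectable at such counts nor the part of its neighbours' shift in its value was tested. Fzd3 and Fzd8 had 9 and 19 counts over Control and 17 and 7 over SOX17KO and were not tested.

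**Figure D3:**
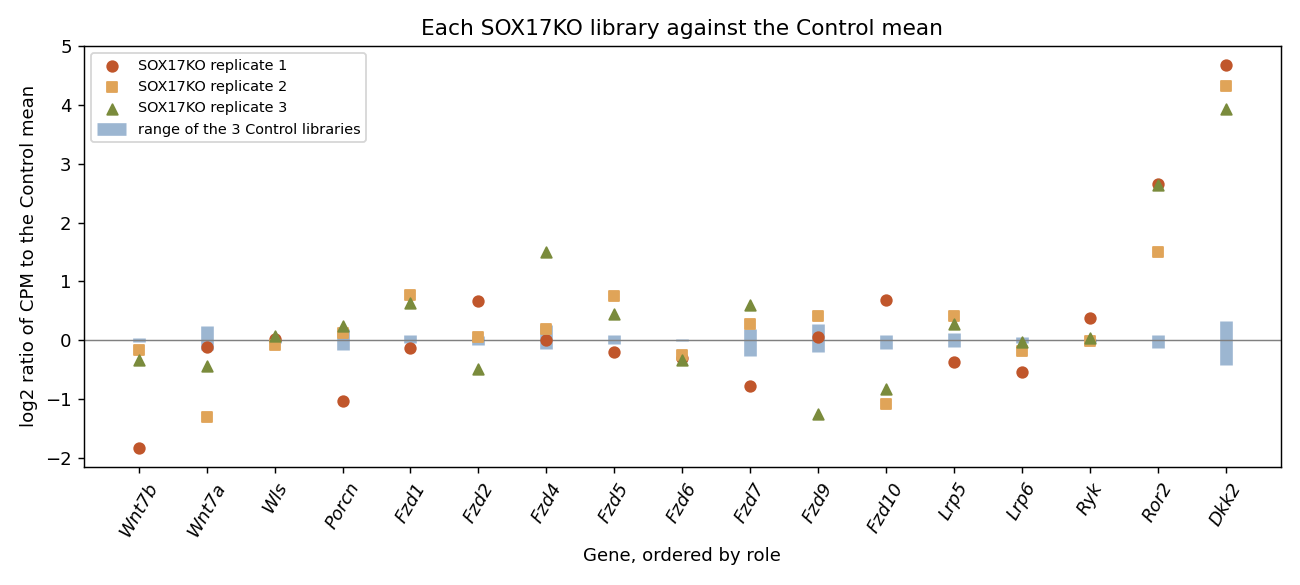
Log2 ratio of each SOX17KO library's CPM to the Control mean (vertical axis) for the 17 tested genes; blue bars span the 3 Control libraries. For Fzd1, Fzd5, Fzd7, Fzd10 and Lrp5, SOX17KO replicate 1 lies on one side of the Control bar and replicates 2 and 3 on the other, while all 3 agree in direction for Dkk2, Ror2, Fzd6 and Wnt7b.

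Among the co-receptors, Lrp5 was at 296.9, 267.2 and 249.99 CPM in Control against 209.4, 362.3 and 327.5 CPM in SOX17KO. SOX17KO replicate 1 was again below all Control libraries and replicates 2 and 3 above them. Its log2 fold change was 0.14 (95% interval -0.32 to 0.61; edgeR adjusted p = 0.778), and 0.34 ± 0.09 (SE; edgeR adjusted p = 0.0181) without SOX17KO replicate 1. Lrp6 was at 157.7, 150.5 and 145.6 CPM in Control against 104.0, 132.8 and 147.9 CPM in SOX17KO. Only SOX17KO replicate 3 reached the Control range, and the log2 fold change was -0.24 (95% interval -0.55 to 0.071; edgeR adjusted p = 0.380). Lrp6 lies on chromosome 6, and its 20 nearest tested genes had a median log2 fold change of -0.42, with 5 called lower; the part of that shift in the value of Lrp6 was not tested.

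Such an order, with SOX17KO replicate 1 on one side of all Control libraries and replicates 2 and 3 on the other, was found in 5 of the 17 tested members and in 15.1% of all tested genes. SOX17KO replicate 1 lay outside the range of the other 5 libraries in 12 of the 17, and in 61.0% of all tested genes. Without it, 10 of the 17 were called, 6 higher (Dkk2, Ror2, Fzd1, Fzd5, Fzd7 and Lrp5) and 4 lower (Wnt7a, Wnt7b, Fzd6 and Fzd10). In that fit 22.2% of all genes tested were called, 11.9% higher and 10.3% lower.

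**Figure D4:**
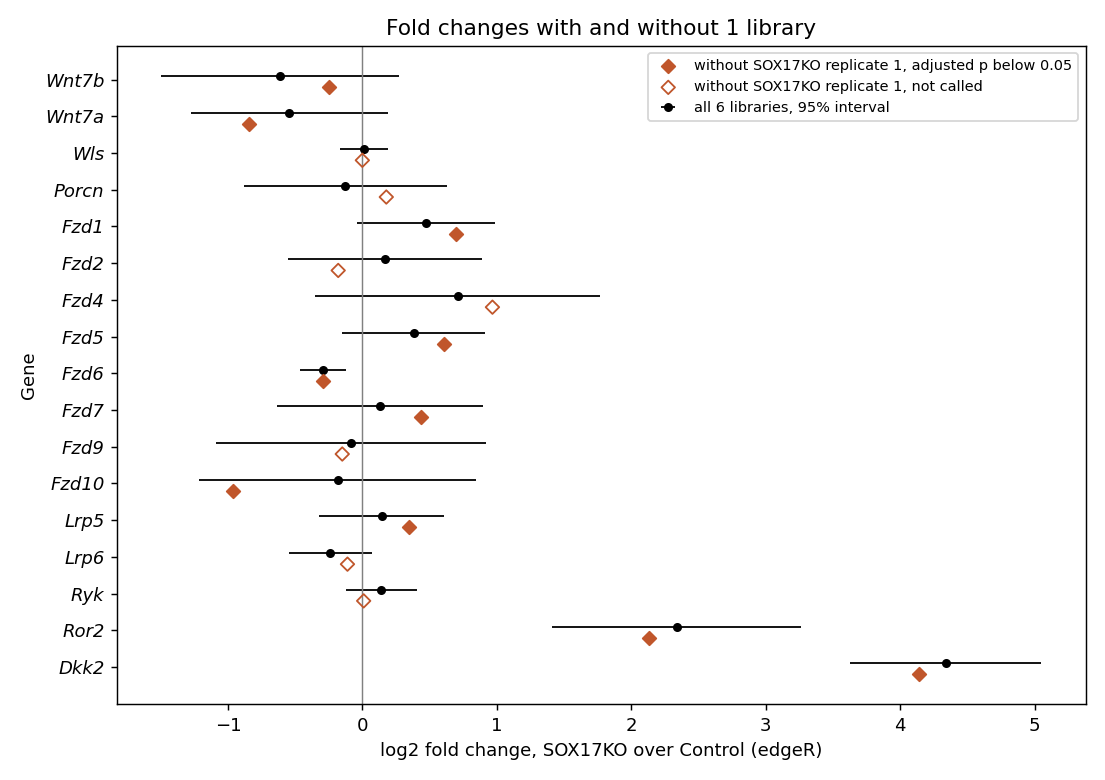
Log2 fold change of SOX17KO over Control (horizontal axis) for the 17 tested genes, with 95% intervals over all 6 libraries (black) and the value without SOX17KO replicate 1 (diamonds, filled where called). Intervals exclude 0 for Dkk2, Ror2 and Fzd6, and the diamonds are filled for 10 genes.

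Of the alternative receptors, Ror2, a receptor tyrosine kinase that binds Wnt5a, rose from a low level. It was at 0.398, 0.383 and 0.342 CPM in Control against 2.36, 1.05 and 2.33 CPM in SOX17KO, or 8 to 11 and 24 to 62 counts per library. All SOX17KO libraries lay above all Control libraries, with replicate 2 the lowest of the 3. The log2 fold change was 2.34 ± 0.39 (SE; edgeR adjusted p = 0.0163), a 5.05-fold rise. Leaving out any Control library ended the call of Ror2 (edgeR adjusted p = 0.101, 0.0929 and 0.104 without replicates 1, 2 and 3). Those fits called 197, 192 and 202 genes in all, against 834 with all 6 libraries. In them Ror2 had a log2 fold change of 2.38, 2.35 and 2.27. Its ligand Wnt5a had 1 count over the Control libraries and 2 over the SOX17KO libraries, and its relative Ror1 had 1 count in all. On chromosome 13, the 20 tested genes nearest to Ror2 had a median log2 fold change of -0.036 and none was called. Ryk, a Wnt-binding pseudokinase, was at 108.5, 112.1 and 110.8 CPM in Control against 142.8, 109.1 and 113.6 CPM in SOX17KO, where replicate 1 stood well above the other 5 libraries (log2 fold change 0.14, 95% interval -0.13 to 0.41; edgeR adjusted p = 0.579).

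Dkk2, the secreted inhibitor that binds LRP5 and LRP6, showed the largest change among the 17 tested members. It was at 0.362, 0.478 and 0.609 CPM in Control against 12.4, 9.74 and 7.37 CPM in SOX17KO, from 10, 10 and 16 counts against 325.05, 222.06 and 133. The groups were far apart, and the lowest SOX17KO library was above every Control library by more than the whole Control range. Its log2 fold change was 4.34 ± 0.30 (SE; edgeR adjusted p = 0.000718), a 20.2-fold rise, and it stayed between 4.14 and 4.54 and called when any one library was left out (edgeR adjusted p up to 0.0115). The other Dickkopf members, Dkk1, Dkk3 and Dkk4, were listed at 0 in all 6 libraries, so Dkk2 supplied all counts of the Dickkopf members in both groups. The 20 tested genes nearest to Dkk2 on chromosome 3 had a median log2 fold change of 0.033, with 3 called higher and 1 lower. In bulk samples more cells with Dkk2 RNA and more Dkk2 RNA per cell cannot be told apart. The summed level of the 11 mesenchymal markers was also higher in SOX17KO, at 0.332 to 0.877 CPM against 0.109 to 0.152 CPM, with at most 21 counts over a group for any one of them, and its part in the rise of Dkk2 and Ror2 was not tested. Itln1 rose with Dkk2 and Ror2, and its part in either result was not tested. It was the only Paneth cell marker with counts: Lyz1, Defa24, Defa17, Defa22 and Ang4 were at 0 in all 6 libraries.

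The remaining secreted modulators among the 48 members were nearly absent. This does not cover modulators outside the members, such as Dkkl1 (7.91 ± 1.05 CPM in Control and 5.32 ± 1.62 CPM in SOX17KO) and Notum, given below. Rspo1, Rspo2 and Rspo3 were listed at 0 in every library and Rspo4 had 2 counts in all, both in Control. Sfrp1 and Sfrp4 were listed at 0, Sfrp2 had 1 count, and Sfrp5 had 3 counts over Control and 2 over SOX17KO. Neither the R-spondins nor the secreted Frizzled-related proteins gave a member that passed the low-count filter. With no such filter Rspo4, Sfrp2 and Sfrp5 were not called (edgeR adjusted p = 0.580, 0.670 and 0.927).

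Levels of different genes were compared per kilobase of the longest protein-coding transcript in GENCODE M21, since longer transcripts give more counts. In Control, Wnt7b was at 54.4 ± 1.13 and Lrp5 at 52.6 ± 4.60 CPM per kilobase, which did not differ beyond their spread. Ryk followed at 38.7 ± 0.648, Wls at 34.2 ± 0.966, Lrp6 at 16.1 ± 0.647 and Fzd1 at 14.6 ± 0.746 CPM per kilobase. Fzd6 and Fzd10, at 10.5 ± 0.176 and 10.1 ± 0.843 CPM per kilobase, did not differ beyond their spread. Lower levels were those of Fzd7 at 6.82 ± 1.09, Porcn at 5.08 ± 0.662, Fzd5 at 3.32 ± 0.176 and Wnt7a at 1.69 ± 0.269 CPM per kilobase. Dkk2 was at 0.130 ± 0.0333 CPM per kilobase in Control, level with Fzd4 at 0.125 ± 0.0210, and at 2.65 ± 0.679 CPM per kilobase in SOX17KO, between Fzd5 at 4.33 ± 1.37 and Wnt7a at 1.16 ± 0.443. In SOX17KO the 3 highest, Lrp5 at 58.1 ± 15.5, Ryk at 42.7 ± 6.43 and Wnt7b at 35.6 ± 17.9 CPM per kilobase, overlapped within their spread, and Wls at 34.4 ± 1.91 lay within 1 SD of Wnt7b. Ror2, the lowest tested member in Control at 0.0939 ± 0.00721 CPM per kilobase, reached 0.481 ± 0.187 CPM per kilobase in SOX17KO and did not differ beyond the spread from Fzd2 at 0.758 ± 0.303. The transcripts actually used by the organoids are not known, and by coding length alone Wls stood second after Wnt7b in Control.

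Other genes of the pathway were taken from lists, some of whose members were already known from these data. Their counts of called genes stand beside a background of 3.67% called higher and 3.20% lower among all genes tested. Of 5 genes of R-spondin reception and Frizzled turnover, all tested, Lgr5, an R-spondin receptor of stem cells, rose from 44.8 ± 5.68 to 145.2 ± 25.3 CPM, and 4 were not called. Over these 5 genes the median was 0.31 on the log2 scale. Of those 4, Lgr4, a related receptor, was at 86.1 ± 3.51 and 90.6 ± 21.3 CPM, and the ligases that remove Frizzled receptors were at 205.3 ± 20.03 and 207.6 ± 11.2 CPM for Rnf43 and at 29.5 ± 1.82 and 36.6 ± 7.29 CPM for Znrf3. Lgr6, another related receptor, went from 7.26 ± 0.539 to 16.8 ± 8.39 CPM without overlap between the groups (log2 fold change 1.21, edgeR adjusted p = 0.110). Of 22 other extracellular modulators with a row, 11 were tested and 1 rose, where 3.67% of all tested genes did: Igfbp4, a secreted protein that can bind Frizzled and LRP6, went from 0.415 ± 0.149 to 5.40 ± 3.39 CPM, with 3.65 as its log2 fold change (edgeR adjusted p = 0.0127). Leaving out any Control library, in fits that called 192 to 202 genes in all, ended this call (edgeR adjusted p up to 0.0869). Like Dkk2 and Ror2, Igfbp4 passed the low-count filter only through its SOX17KO libraries. It was also called with no such filter (edgeR adjusted p = 0.00526). The median log2 fold change of that list was 0.37. Kremen1, a receptor for Dickkopf proteins, was at 60.1 ± 4.16 and 63.3 ± 8.05 CPM (edgeR adjusted p = 0.801).

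Within the beta-catenin branch inside the cell 24 of 27 genes were tested, 2 rose and none fell, with a median log2 fold change of 0.010; the background was 3.67% called higher. These were Tle4, a co-repressor of TCF factors, which rose by 0.66 on the log2 scale, from 23.0 ± 1.34 to 36.3 ± 2.01 CPM (edgeR adjusted p = 0.00824), and Lef1, a TCF family factor, from 0.479 ± 0.113 to 7.62 ± 5.94 CPM. Of 17 target genes with a row, 15 were tested, 4 rose (Lgr5, Mmp7, Lef1 and Sp5) and none fell, with a median of 0.13, beside the same 3.67%. Sp5, a transcription factor gene, went from 1.35 ± 0.127 to 5.54 ± 2.91 CPM (edgeR adjusted p = 0.0350), and Axin2, a feedback inhibitor, was at 152.9 ± 11.5 and 189.2 ± 43.6 CPM (edgeR adjusted p = 0.369). Nkd1, another feedback inhibitor, was at 2.82, 3.06 and 3.23 CPM in Control against 148.0, 9.17 and 24.1 CPM in SOX17KO. Its groups did not overlap, and with 4.32 as its log2 fold change it was not called by edgeR (adjusted p = 0.0550). DESeq2 called it (adjusted p = 0.000843), and without SOX17KO replicate 1, the highest library, edgeR called it with 2.44 as its log2 fold change (adjusted p = 0.000605), in a fit that called 22.2% of its genes. Among other targets, every SOX17KO library lay below every Control library for Notum and Tnfrsf19. Neither was called (edgeR adjusted p = 0.0915 and 0.0761). Notum went from 204.1 ± 8.07 to 159.1 ± 18.8 CPM and Tnfrsf19 from 115.8 ± 5.71 to 88.5 ± 10.2 CPM. Lgr5, Lef1 and Notum each count in 2 of these lists. In the fits without a Control library, which called 192 to 202 genes in all, Tle4, Lef1, Mmp7 and Sp5 were not called (edgeR adjusted p up to 0.0662, 0.109, 0.0691 and 0.169). Sp5 was also not called without SOX17KO replicate 2 (edgeR adjusted p = 0.0682). Lef1 passed the low-count filter only through its SOX17KO libraries, and was also called with no such filter (edgeR adjusted p = 0.00707). With all 6 libraries limma-voom did not call Lef1 or Sp5 (adjusted p = 0.0782 and 0.0763), and without SOX17KO replicate 1 the log2 fold change of Lef1 was 3.14 in place of 3.98 with edgeR. Of 23 planar cell polarity and calcium branch genes 19 were tested and 1 fell: Rac1, a small GTPase, went from 657.0 ± 6.23 to 452.6 ± 38.0 CPM, with -0.54 as its log2 fold change (edgeR adjusted p = 0.0152). The call of Rac1 also ended without any Control library (edgeR adjusted p up to 0.103). Its 20 nearest tested genes, on chromosome 5, had a median log2 fold change of -0.47, with 7 called lower, and the part of that shift in its value was not tested. The 14 genes of ligand lipid modification, retrieval and heparan sulphate synthesis were all tested and none was called with edgeR.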

How the data were processed

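The authors deposited 1 table of expected counts per gene, not scaled to depth, and columns were assigned to samples through the names in their titles. Bowtie, RSEM and mm9 appear without versions in the submitters' processing notes; for annotation, strand setting and filters, the sources used here give nothing. Per the labels' protocols, libraries were directional after poly(A) selection. Expected counts were rounded to whole numbers and tested with edgeR 4.0.16 in R 4.3.3 (TMM, filterByExpr with a minimum count of 10 and total of 15, genotype as the only term, Benjamini-Hochberg adjustment); SE is the log2 fold change divided by the square root of F. The procedure was tested on simulated data. Members, lists and alternatives were chosen with earlier results of these data known. Every tested member was named, and up to 4 called genes of each other list, by smallest p. Lgr4, Lgr6, Rnf43, Znrf3, Kremen1, Axin2, Nkd1, Notum, Tnfrsf19, Epcam, Cldn7, Krt19 and Cd68 were added after their values were seen. Alternatives were DESeq2 1.42.0, limma-voom (limma 3.58.1), RLE factors, unscaled library totals, no filter on low counts, unrounded values, a block for the replicate number, and leaving out every library in turn. Neighbours came from RefSeq gene order (12035 tested genes, 99.2%, matched) and lengths from GENCODE M21 (48 members matched), both on GRCm38. Read counts carry no molecular identifiers, and the exact interval of the Wnt7b share and the floors cover counting error only. The intervals of log2 fold changes come from the edgeR fit and include variation between libraries. Figures used matplotlib 3.10.9.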

Additional observations from a re-analysis of the deposited data

How the results depend on the processing

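Members called higher numbered 2 and lower 0 with RLE factors, library totals only, limma-voom and unrounded values, as in the analysis reported. DESeq2 called 3 higher and 1 lower (Dkk2, Ror2 and Wnt16; Fzd6), and 771 higher and 668 lower of all genes, against 446 and 388. Leaving out 1 library gave 1 to 6 members higher and 0 to 4 lower, and 97 to 1453 genes higher and 94 to 1255 lower, the fewest without a Control library and the most without SOX17KO replicate 1. With the replicate number as a block, 1 member (Dkk2) was called higher, and 183 genes higher and 143 lower; Ror2 then had an edgeR adjusted p of 0.0536. Same-numbered libraries did not deviate together (correlations of deviations -0.19, -0.047 and -0.18). With 3 libraries per group, centred within each group, these correlations cannot decide whether the numbers pair the samples. The median log2 fold change of the tested members was 0.0095 with limma-voom and 0.0096 without SOX17KO replicate 1, in place of 0.13.

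Leaving out 1 library at a time, the log2 fold change ran from -0.96 to 0.12 for Fzd10, -0.18 to 0.40 for Fzd2, -0.16 to 0.44 for Fzd7, -0.40 to 0.23 for Fzd9, -0.017 to 0.34 for Lrp5, -0.35 to 0.18 for Porcn and -0.024 to 0.052 for Wls; the direction of these 7 turned in at least 1 such fit and that of no other tested member did. That of Wls was -0.0076 with no low-count filter. The cause was not tested. Depth limits the 31 untested members, the most abundant of which had 37 counts in a library.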
